A study of Homo sapiens with 15 samples.

Results

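The expression of 9 genes of the HLA class I antigen presentation pathway was followed in SCC13 cells, an established line of human cutaneous squamous cell carcinoma. The genes were HLA-B, HLA-C, HLA-E, HLA-F, B2M, TAP1, TAP2, TAPBP and CD274, out of 20499 genes that carried a symbol on the array. Every probe, control probes aside, whose accession belongs to one of these genes was taken, which gave 15 probes of 50599. Of the 15 probes, 13 were among the 22690 that passed the filter for testing, and each of the 9 genes kept at least 1 of them. The second probes of TAP2 and CD274 did not pass, being well above background on 3 and 0 of 15 arrays.

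Class I molecules are built from a heavy chain (HLA-B, HLA-C and the nonclassical HLA-E and HLA-F) and the light chain β2-microglobulin, made from B2M. Cytosolic peptides reach the endoplasmic reticulum through the transporter of TAP1 and TAP2, and tapasin, made from TAPBP, holds empty class I molecules next to that transporter until a peptide fits. CD274 encodes PD-L1, a ligand that restrains T cells which have found their peptide. In keratinocytes these genes are known to respond to interferons and to NF-kB, the pathway that TLR4 switches on when it meets bacterial lipopolysaccharide (LPS).

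The cells had been transfected stably with the empty plasmid pUNO (SCC13-pUNO) or with the plasmid carrying TLR4 (SCC13-TLR4), and both were selected with blasticidine. The labels of the protocol call the second plasmid pUNO-TLR4GFP, and neither the promoter of the plasmid nor the number of clones is given in the sources used here. The paper also describes sorting SCC13-TLR4 cells by their GFP signal and keeping the brightest fraction. It describes no such sort of SCC13-pUNO cells, so plasmid and sorting cannot be told apart. Each line was grown without LPS or with 10 μg/ml LPS for 24 h, which gave 4 arrays of untreated SCC13-pUNO, 3 of untreated SCC13-TLR4, 4 of SCC13-pUNO with LPS and 4 of SCC13-TLR4 with LPS. The methods of the study describe 4 parallel seedings of each line, so p-values do not measure the spread between transfections. They measure the spread between seedings of the same transfected cells and, unless slide is in the model, also that between array slides. The exact permutation tests have no slide term. RNA was total RNA of bulk cells, and fewer cells with a transcript cannot be told apart from less transcript per cell.

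On the arrays, between 47.1% and 56.2% of the spots were well above background, and no member probe was saturated on any of the 15 arrays. A level is the log2 intensity minus that of the array's 75th percentile. Between arrays, levels are compared only for the same probe or for the same set of probes. TLR4 was between 2.84 and 3.19 on the 7 SCC13-TLR4 arrays and between -6.40 and -3.80 on 7 of the 8 SCC13-pUNO arrays. The remaining array, which its label calls untreated replicate 2 of SCC13-pUNO, was at 3.04, against that label, and the values of HLA-B, HLA-C, TAP2 and CD274 that rest on it are given with and without it. For the other 5 genes leaving it out moved no difference between lines or with LPS by more than 0.066. The arrays lay on 2 slides. Slide 1 held 8 arrays, with 3 of untreated SCC13-pUNO, 1 of untreated SCC13-TLR4 and 2 of each LPS group, and slide 2 held the other 7, with 1, 2, 2 and 2. Markers of squamous keratinocytes were present, with KRT5, KRT14, KRT17, TP63 and CDH1 well above background on all 15 arrays and KRT6A on 7. Among the markers of other cell types, PTPRC, CD14, CDH5 and PMEL were also above background on all 15 arrays, at levels of -1.15 or lower, while COL1A2 and PDGFRB were on none.

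The 250 bases before the start of HLA-B, HLA-C and B2M are shown because HLA-B and HLA-C were both higher on slide 2. B2M, the partner chain of both, was not. With the mean of each slide subtracted, HLA-B and HLA-C had a Pearson's r of -0.029. The sequences are those of RefSeq on GRCh38.p14, read 5′ to 3′ on the strand of the gene, and 8 of the 9 genes had an entry. Capitals mark matches, on either strand, to the core of the interferon-stimulated response element (GAAA, any 2 bases, GAAA), to a kappa B form that NF-kB can bind (GGG, any 2 bases, TT, any 1 base, CC) and to CCAAT.
HLA-B (chr6:31357180-31357429, minus strand): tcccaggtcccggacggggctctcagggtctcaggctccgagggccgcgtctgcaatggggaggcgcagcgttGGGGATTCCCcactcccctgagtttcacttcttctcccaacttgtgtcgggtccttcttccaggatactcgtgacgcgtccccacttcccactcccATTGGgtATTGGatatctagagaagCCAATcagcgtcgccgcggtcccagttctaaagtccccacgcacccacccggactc
HLA-C (chr6:31272093-31272342, minus strand): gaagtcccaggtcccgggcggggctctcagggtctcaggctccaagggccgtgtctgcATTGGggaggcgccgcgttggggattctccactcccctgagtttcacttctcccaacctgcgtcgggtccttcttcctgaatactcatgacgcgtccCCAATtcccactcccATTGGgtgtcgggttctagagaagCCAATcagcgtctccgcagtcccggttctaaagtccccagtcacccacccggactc
B2M (chr15:44711267-44711516, plus strand): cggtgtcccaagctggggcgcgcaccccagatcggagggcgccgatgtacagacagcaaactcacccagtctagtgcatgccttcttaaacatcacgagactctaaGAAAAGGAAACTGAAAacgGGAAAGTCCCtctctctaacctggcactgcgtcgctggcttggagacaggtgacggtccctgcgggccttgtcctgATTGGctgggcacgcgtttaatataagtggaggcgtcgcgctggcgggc
The HLA-B and HLA-C windows were identical at 226 of 250 bases (90.4%). The kappa B form lay 177 to 168 bases before the start of HLA-B and was not matched in the HLA-C window, while CCAAT was matched in both. The B2M window held the response element core at 144 to 135 and at 138 to 129 bases before the start, overlapping each other, and the kappa B form at 125 to 116. Among the other genes, the response element core was matched before HLA-F, TAP1, TAP2, TAPBP and CD274, and the kappa B form before TAP1 and TAPBP. TAP1 had a further window, before another start, in which none of the motifs was matched. Over 35116 windows of the same length, the core was found in 3.02%, the kappa B form in 5.07% and CCAAT in 32.0%. These matches are descriptions of the letters and not binding sites, and a window without a match says nothing on the factor.

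HLA-B and HLA-C passed in no comparison of the lines or of LPS. Their levels fell into separate ranges on the 2 slides, in every group, with the widest gaps among the 9 genes. In untreated SCC13-pUNO cells HLA-B was at 0.38, 0.05 and 0.47 on slide 1 and at 3.00 on slide 2. In untreated SCC13-TLR4 cells it was at 0.35 on slide 1 and at 2.76 and 2.82 on slide 2. With LPS it was at 0.33 and 0.29 on slide 1 and at 3.32 and 3.30 on slide 2 in SCC13-pUNO cells. In SCC13-TLR4 cells with LPS it was at 0.63 and 0.10 on slide 1 and at 2.72 and 2.35 on slide 2. No HLA-B value of slide 1 reached the lowest of slide 2. The deposited intensities, before any scaling, showed the same gap, with 304 to 516 on slide 1 and 1716 to 2793 on slide 2. Within the groups, slide 2 exceeded slide 1 by 2.70 in untreated SCC13-pUNO, 2.44 in untreated SCC13-TLR4, 3.00 in SCC13-pUNO with LPS and 2.18 in SCC13-TLR4 with LPS.

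HLA-C, whose chain presents peptide and is also read by receptors of natural killer cells, showed the same split. Its levels were -1.62, -1.30 and -1.38 against 0.01 in untreated SCC13-pUNO cells and -1.46 against 0.05 and 0.48 in untreated SCC13-TLR4 cells, slide 1 first. With LPS they were -1.63 and -1.58 against 0.23 and 0.04 in SCC13-pUNO cells. In SCC13-TLR4 cells with LPS they were -1.60 and -1.42 against 0.07 and -0.03. The slides again did not overlap in any group. HLA-E, HLA-F, TAP1 and TAPBP, with far smaller gaps and lower levels on slide 2, did not overlap within any group either, so that 6 of the 9 genes separated in this way, beside 33.4% of all probes. Over all arrays 4 of the 9, HLA-B, HLA-C, HLA-E and TAPBP, separated, beside 21.5% of all probes. The other HLA-B probe lay between -1.44 and -0.56 on slide 1 and between 0.43 and 1.39 on slide 2.

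**Figure D1:**
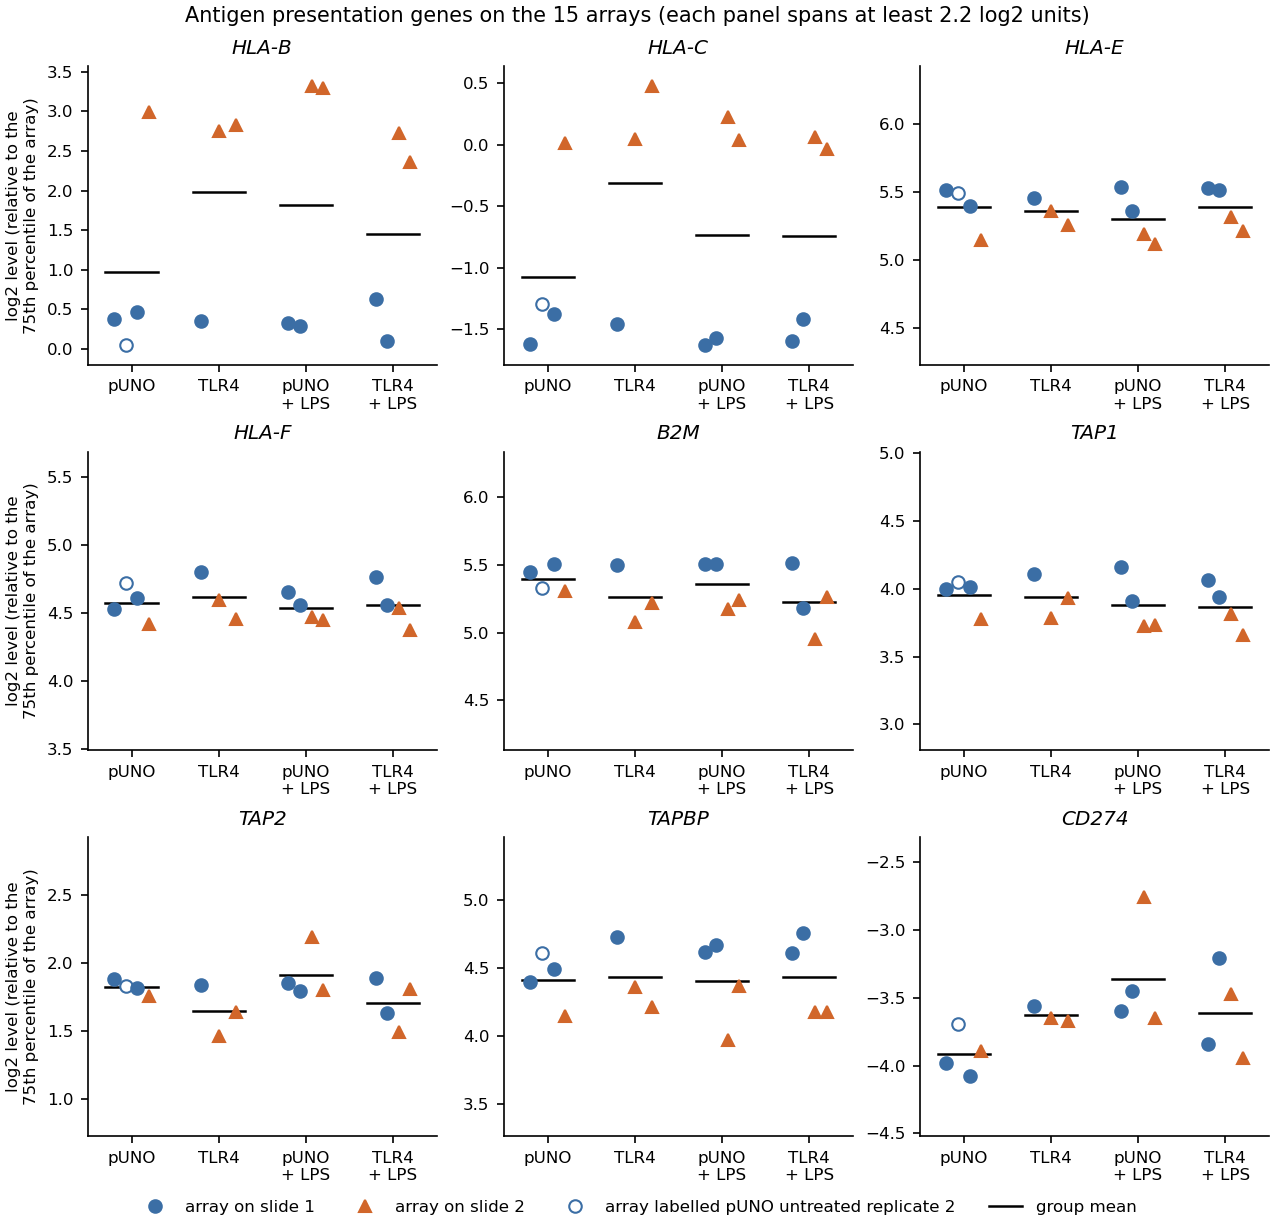
Levels of the 9 genes by group (x axis) as log2 intensity over the array's 75th percentile (y axis), 1 point per array, with the group mean as a bar. HLA-B and HLA-C were higher on slide 2 (triangles) in each of the 4 groups by 1.45 to 3.00, whereas HLA-E, HLA-F, TAP1 and TAPBP were lower on slide 2 without overlap in any group and by less, and B2M, TAP2 and CD274 overlapped in at least 1 group.

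With the groups in the model, slide 2 exceeded slide 1 by 2.58 (SE 0.13, 5.99-fold, limma adjusted p = 1.88e-08) for HLA-B and by 1.61 (SE 0.085, 3.05-fold, adjusted p = 2.36e-08) for HLA-C. The other HLA-B probe differed by 1.76 (SE 0.16, adjusted p = 3.14e-06). Of all probes tested, 17.2% were called higher on slide 2 and 34.7% lower, and the median difference was -0.13, so being called is not particular to these genes. By the size of its difference HLA-B ranked 86 of 22690 probes, with 0.379% at least as high, and HLA-C ranked 687, with 3.02% at least as high. The comparison of slides was added after the data had been seen. With each array left out in turn HLA-B stayed between 2.53 and 2.68 and HLA-C between 1.57 and 1.66.

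The partners of these chains moved little and the other way. B2M was lower on slide 2 by -0.25 (SE 0.071, adjusted p = 0.0107), and HLA-E, which shows leader peptides of other class I chains to natural killer cells, by -0.26 (SE 0.051, adjusted p = 0.00114). HLA-F, a nonclassical chain, differed by -0.20 (SE 0.056, adjusted p = 0.010), TAP1 by -0.27 (SE 0.055, adjusted p = 0.00156) and TAPBP by -0.45 (SE 0.068, adjusted p = 0.000231). Relative to the median of all probes these differences were between -0.32 and -0.073. With quantile normalization B2M (-0.11) and HLA-F (-0.077) were no longer called. TAP2 (-0.057, 95% interval -0.25 to 0.14) and CD274 (0.024, 95% interval -0.31 to 0.36) did not pass, and both changed sign under quantile normalization. Slide took 96.3% of the variance of HLA-B and 97.0% of that of HLA-C over the 15 arrays, between 52.6% and 75% for HLA-E, HLA-F, B2M, TAP1 and TAPBP, 5.73% for TAP2 and 2.32% for CD274. The median of all probes tested was 35.4%.

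**Figure D2:**
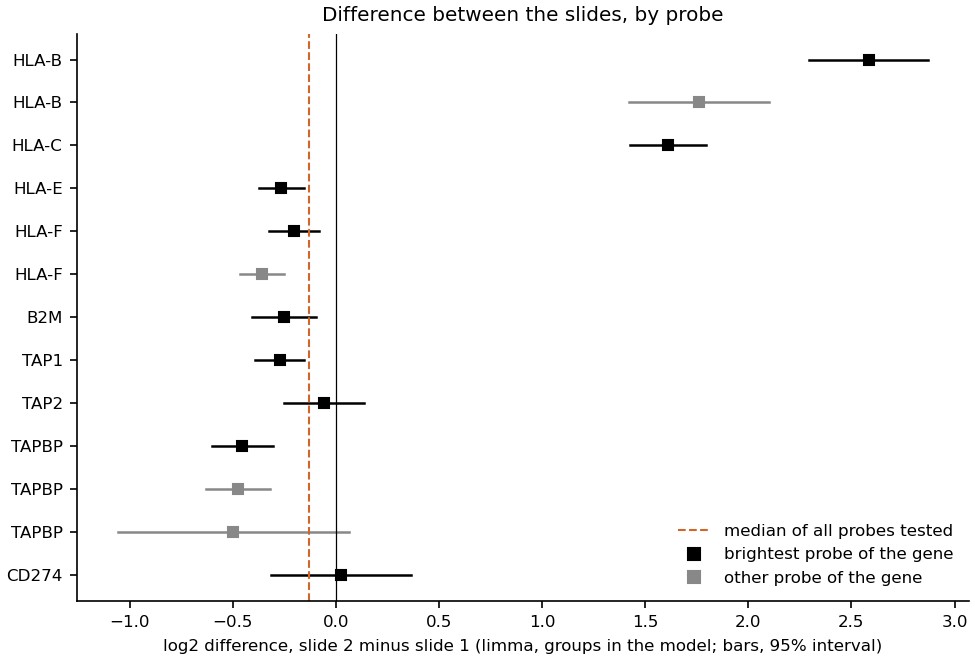
Difference of slide 2 from slide 1 (x axis, log2) for the 13 member probes that were tested (y axis), with 95% intervals from limma and the groups in the model. The HLA-B and HLA-C probes lie at 1.61 to 2.58, apart from the rest, and the dashed line marks the median of all probes at -0.13.

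The slides are the array carriers that the file headers name, and which step of the work they stand for was not tested. HLA genes are alike in sequence and vary between people, and a probe may read other class I chains too, which was not tested since probe sequences were not used here. Outside the 9 genes, the nonclassical chain HLA-G differed by 0.47 (SE 0.058, adjusted p = 5.2e-05) between the slides. FCGRT, a receptor chain for IgG that also pairs with β2-microglobulin, was higher on slide 2 by 1.68 (SE 0.27, adjusted p = 0.000398). JAK1, a kinase of the interferon receptors, was higher by 0.97 (SE 0.067), and so was HLA-DQB1, chosen after its values had been seen, by 1.39 (SE 0.35). FCGRT, JAK1 and HLA-DQB1 each had the highest slide difference of their list. FCGRT and JAK1 were named for their line difference without slide. That choice is not independent of slide, since the untreated groups were split unequally over the slides. Of the 47 pathway genes tested, 22 were called lower on slide 2 and 9 higher, beside 34.7% and 17.2% of all probes. Of 10 genes of peptide supply 8 were called lower and 0 higher, beside the same shares. PSMB8 differed by -0.44 (SE 0.075) and PSMB9, chosen after its values had been seen, by -0.55 (SE 0.066). Of 14 regulators 8 were called lower and 2 higher, again beside these shares of all probes. Sums of marker levels, in units of the 75th percentile, weigh each probe by its brightness and do not measure amounts of cells. The leukocyte markers were PTPRC, CD3E, CD14 and ITGAM, read here in a cultured cell line. They summed to 0.313 to 0.783 on slide 1 and 0.472 to 0.621 on slide 2. Of the 3 that were tested, 1 (ITGAM, 0.62, SE 0.14) was called higher on slide 2 and none lower. CD3E was well above background on 1 of 8 arrays of slide 1 and on 7 of 7 of slide 2, at -2.76 or lower. Of the 6 keratinocyte markers, summed at 103.5 to 149.97 on slide 1 and 86.6 to 125.7 on slide 2, 5 were tested and 4 were called lower on slide 2, KRT14 by -0.67, KRT17 by -0.51, TP63 by -0.43 and KRT5 by -0.23. The melanocyte markers summed to 0.350 to 0.443 and 0.298 to 0.465, and PMEL was called lower by -0.38. The endothelial markers summed to 0.149 to 0.482 and 0.191 to 0.305, with neither called, and the fibroblast markers to 0.033 to 0.256 and 0.073 to 0.122, with none tested and COL1A2 and PDGFRB on no array. The part of these markers in the HLA-B and HLA-C levels was not tested.

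The comparison of SCC13-TLR4 with SCC13-pUNO asked whether TLR4 changes these genes, and no member passed in it. In untreated cells 0 of 9 genes were called, where 0% of all probes were (limma, adjusted p of 0.05, with 570 probes at an unadjusted p under 0.05, none of them the probe that stands for a member). With LPS 0 of 9 were called, again with 0% of all probes (617 unadjusted). Pooled over LPS the background was 0.022%, or 5 of 22690 probes, and 0 of the 9 genes were among them (985 unadjusted). The untreated difference of HLA-B was 1.00 (SE 1.02, adjusted p = 0.999), and HLA-B was higher in SCC13-TLR4 in 7 of the 12 array pairs (two-sided exact permutation test, p = 0.40). It was 0.69 when the array labelled as untreated replicate 2 of SCC13-pUNO was left out. Within slide 1 it was 0.05 with that array and -0.074 without it, and within slide 2 it was -0.21. With slide as a factor it was -0.073 (SE 0.20, 95% interval -0.50 to 0.35), and -0.16 (SE 0.20) without that array. For HLA-C the untreated difference of 0.76 (SE 0.64) became 0.093 (SE 0.13) with slide as a factor, and was -0.024 within slide 1 and 0.25 within slide 2. Without the same array these values were 0.69, 0.15 and, within slide 1, 0.045. Pooled over LPS the differences of HLA-B and HLA-C were 0.32 and 0.38 with it and 0.17 and 0.34 without it. The untreated groups were split over the slides unequally, with 3 of 4 SCC13-pUNO arrays but 1 of 3 SCC13-TLR4 arrays on slide 1.

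With LPS the groups were split evenly, and HLA-B differed by -0.36 (SE 0.94) and HLA-C by -0.011 (SE 0.59), lower in 10 of 16 and in 8 of 16 pairs. With slide as a factor HLA-B kept the value of -0.36 at an SE of 0.17 (95% interval -0.74 to 0.018, adjusted p = 0.763). Its difference was 0.052 within slide 1 and -0.77 within slide 2. The precision for HLA-B thus changed with the slide term, from a 95% interval of -2.39 to 1.67 without it.

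The other 7 genes, with CD274 near the limit of detection among them, gave narrower intervals. Pooled over LPS, their differences between the lines lay between -0.19 and 0.036. No pooled 95% interval went beyond -0.39 or 0.33, which is 1.26-fold upward and 0.765-fold downward at most. Without the array labelled as untreated replicate 2 of SCC13-pUNO these limits were -0.40 and 0.39, or 0.756-fold and 1.31-fold. In untreated cells alone, with that array, they were 0.725-fold and 1.68-fold. For all 9 genes the pooled median was 0.023, beside -0.007 for all probes. TAP2 differed by -0.17 untreated and by -0.20 with LPS. Its levels were 1.88, 1.83, 1.81 and 1.76 in untreated SCC13-pUNO and 1.84, 1.46 and 1.64 in untreated SCC13-TLR4 cells. With LPS they were 1.85, 1.80, 2.19 and 1.80 in SCC13-pUNO and 1.89, 1.63, 1.49 and 1.81 in SCC13-TLR4 cells. The groups overlapped in both conditions. The pooled TAP2 difference of -0.19 (SE 0.092) had an unadjusted limma p of 0.0585 and an adjusted p of 0.996, and permuting the lines within each condition gave an exact two-sided p of 0.031, unadjusted for the 9 genes looked at. Without untreated replicate 2 of SCC13-pUNO the pooled value was -0.19 (SE 0.099, exact permutation p = 0.046) and the untreated one -0.17. These permutations did not take slide into account. Within slide 1 TAP2 differed by -0.0024 untreated, or -0.0083 without that replicate, and by -0.064 with LPS. Within slide 2 it differed by -0.21 and -0.35, and the level of 2.19 in SCC13-pUNO with LPS lay on slide 2. B2M differed by -0.13 (SE 0.10, exact permutation p = 0.166), TAPBP by 0.023 (SE 0.14) and TAP1 by -0.015 (SE 0.095). HLA-E and HLA-F differed by 0.031 (SE 0.092) and 0.036 (SE 0.084).

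CD274 exceeded background well on all arrays but 2, untreated SCC13-pUNO replicates 1 and 3. Its probe thus met the filter only through the other groups, all with higher means. Separation from untreated SCC13-pUNO and its p-values are therefore descriptions near the limit of detection and no support for a difference. It was at -3.98, -3.69, -4.08 and -3.89 in untreated SCC13-pUNO and at -3.56, -3.65 and -3.67 in untreated SCC13-TLR4 cells. These groups did not overlap, as was the case for 3.7% of all probes, and the difference was 0.28 (SE 0.22, adjusted p = 0.999, exact permutation p = 0.057). Without untreated replicate 2 of SCC13-pUNO it was 0.36 (SE 0.23, exact permutation p = 0.10, the lowest that 3 arrays against 3 can give). With LPS, where 1.29% of all probes and none of the 9 genes had groups that did not overlap, the difference of CD274 was -0.25 (SE 0.20), and pooled it was 0.016 (SE 0.15), or 0.053 without that replicate.

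**Figure D3:**
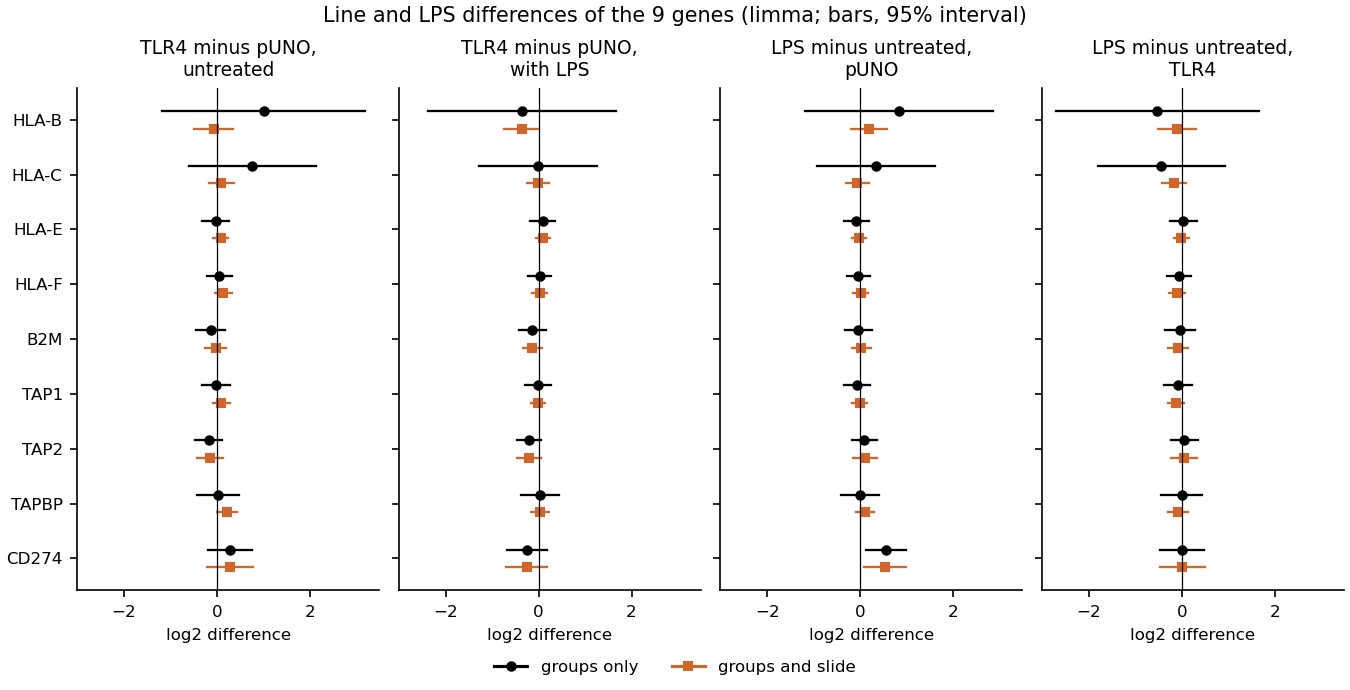
Differences of the 9 genes between the lines and between LPS and untreated cells (x axis, log2), with 95% intervals from limma, without slide (circles) and with slide as a factor (squares). The intervals of HLA-B and HLA-C narrow with slide in the model. Every interval shown without slide spans 0 apart from that of CD274 for LPS in SCC13-pUNO cells (0.12 to 0.98). The CD274 probe was near the limit of detection in untreated SCC13-pUNO cells and met the filter through the other groups, so that interval is a description.

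LPS was compared with no treatment in each line, to see whether a TLR4 ligand acts on these genes. In SCC13-pUNO cells 0 of 9 genes were called, beside 0% of all probes (564 unadjusted), and CD274 alone of the 9 had an unadjusted p under 0.05. With LPS its levels in that line were -3.60, -3.45, -2.76 and -3.65, all above the 4 untreated arrays. Groups that did not overlap were found for 1.25% of all probes. The probe was not well above background on 2 of the 4 untreated arrays and met the filter through the other groups, so its level there is near the limit. The separation and the p-values that follow are therefore descriptions and no support for a response to LPS. Before scaling the intensities overlapped, with 18.4 to 23.5 untreated and 22.6 to 32.0 with LPS, and the array with the highest level had the lowest 75th percentile of all 15, at 192. The CD274 difference was 0.55 (SE 0.20, 1.46-fold, 95% interval 0.12 to 0.98, adjusted p = 1.00), with all 16 array pairs higher (two-sided exact permutation test, p = 0.0286, which no comparison of 4 with 4 arrays can go below). It was 0.54 (SE 0.21) with slide as a factor, 0.39 within slide 1 and 0.69 within slide 2. With the array labelled as untreated replicate 2 of SCC13-pUNO left out it was 0.62 (exact permutation p = 0.057), and without SCC13-pUNO replicate 3 with LPS, the highest of the 4, it was 0.35 (unadjusted limma p = 0.057). With normexp it was 0.25 (SE 0.14) and with quantile normalization 0.38 (SE 0.23), neither at an unadjusted p under 0.05. It failed the correction over all probes in each of these fits.

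In SCC13-TLR4 cells CD274 was at -3.84, -3.20, -3.47 and -3.95 with LPS, on both sides of the untreated arrays, and the difference was 0.011 (SE 0.22). No member was called there, beside 0% of all probes (303 unadjusted), and no member had groups that did not overlap, where 1.76% of all probes did. The responses of the lines differed for CD274 by -0.54 (SE 0.30, 95% interval -1.17 to 0.10, limma adjusted p = 1.00), or by -0.61 (SE 0.31) without untreated replicate 2 of SCC13-pUNO, so a difference between the lines was not shown. No member passed in that comparison, beside 0% of all probes (300 unadjusted).

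The genes of peptide loading gave small differences with LPS, none of which passed. In SCC13-pUNO cells B2M differed by -0.040 (SE 0.14), TAP1 by -0.077 (SE 0.13), TAP2 by 0.087 (SE 0.12) and TAPBP by -0.006 (SE 0.19). In SCC13-TLR4 cells the values were -0.036 (SE 0.15), -0.070 (SE 0.14), 0.056 (SE 0.13) and -0.004 (SE 0.21). HLA-E and HLA-F differed by -0.086 and -0.036 in SCC13-pUNO cells and by 0.034 and -0.061 in SCC13-TLR4 cells, with SEs of 0.11 to 0.13. HLA-B and HLA-C differed by 0.84 (SE 0.94) and 0.34 (SE 0.59) in SCC13-pUNO cells and by -0.52 (SE 1.02) and -0.44 (SE 0.64) in SCC13-TLR4 cells. With slide as a factor these became 0.19, -0.064, -0.093 and -0.17, with SEs of 0.11 to 0.19. Without untreated replicate 2 the values in SCC13-pUNO cells were 0.53 and 0.26, or 0.10 and -0.0079 with slide as a factor.

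The genes around the 9 members were grouped by role into 6 lists of 61 genes, of which 47 had a tested probe. None of the 47 was called between the lines or with LPS in either line (limma, 3 at an unadjusted p under 0.05 in the pooled line comparison). Once slide was a factor, 9 of the 47 had an unadjusted p under 0.05 there, beside 10.6% of all probes, and 0 were called, beside 0.097%. The genes below are those with the largest pooled differences of their list in the fit without slide, and the values given are with slide as a factor unless said. The 10 genes of peptide supply hold immunoproteasome subunits, their constitutive counterparts PSMB5, PSMB6 and PSMB7, the proteasome activator and the trimming peptidases. Their median pooled difference with slide as a factor was 0.074, beside 0.013 for all probes. PSME1, of the proteasome activator, differed by 0.26 (SE 0.10, adjusted p = 0.434), PSMB8 by 0.20 (SE 0.074, adjusted p = 0.434) and ERAP1, which trims peptides in the endoplasmic reticulum, by -0.19 (SE 0.076, adjusted p = 0.444). Of the 4 loading chaperones, which work with tapasin, CALR was at -0.087 (SE 0.12), CANX at -0.035 (SE 0.093), TAPBPL at 0.015 (SE 0.11) and PDIA3 at 0.044 (SE 0.11). NLRC5, the transactivator of class I genes, differed by -0.18 (SE 0.082, adjusted p = 0.463), and the 14 regulators had a median of -0.023. JAK1 went from 0.20 (SE 0.27) without slide to -0.003 (SE 0.066) with it, and JAK2 was at -0.22 (SE 0.16). IRF2, a factor of the interferon response chosen after its values had been seen, had the largest difference of the regulators with slide as a factor, 0.26 (SE 0.083, adjusted p = 0.417), and 0.17 (SE 0.14) without it.

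Of 13 further class I and class I-like genes, 9 were tested, with a median of 0.045. FCGRT went from 0.58 (SE 0.51) to 0.23 (SE 0.27) once slide was a factor, and HLA-G and MICB were at 0.021 and 0.061. In the fit with slide, ULBP3 (0.18, SE 0.096) and MICA (0.13, SE 0.061), ligands of natural killer cells also chosen after their values had been seen, lay above these. Only 4 of 10 class II genes had a tested probe, HLA-DRB1, HLA-DQB1, HLA-DMA and HLA-DMB, and the other 6 were well above background on 0 to 4 arrays. HLA-DMB, which helps to load class II molecules, was at 0.29 (SE 0.20), HLA-DMA at 0.012 (SE 0.074), HLA-DRB1 at -0.082 (SE 0.10) and HLA-DQB1 at -0.30 (SE 0.35). Among the other ligands of immune cells, 6 of 10 were tested. LGALS9, galectin-9, differed by -0.57 (SE 0.23, adjusted p = 0.439), CD276, known as B7-H3, by -0.22 (SE 0.071, adjusted p = 0.417) and CD86 by 0.23 (SE 0.31). None of the 3 passed over all probes. PDCD1LG2, which encodes the other ligand of the receptor of PD-L1, was above background on 1 array. Between the slides, 9 of the 47 genes were called higher on slide 2 and 22 lower, beside the 17.2% and 34.7% of all probes.

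**Figure D4:**
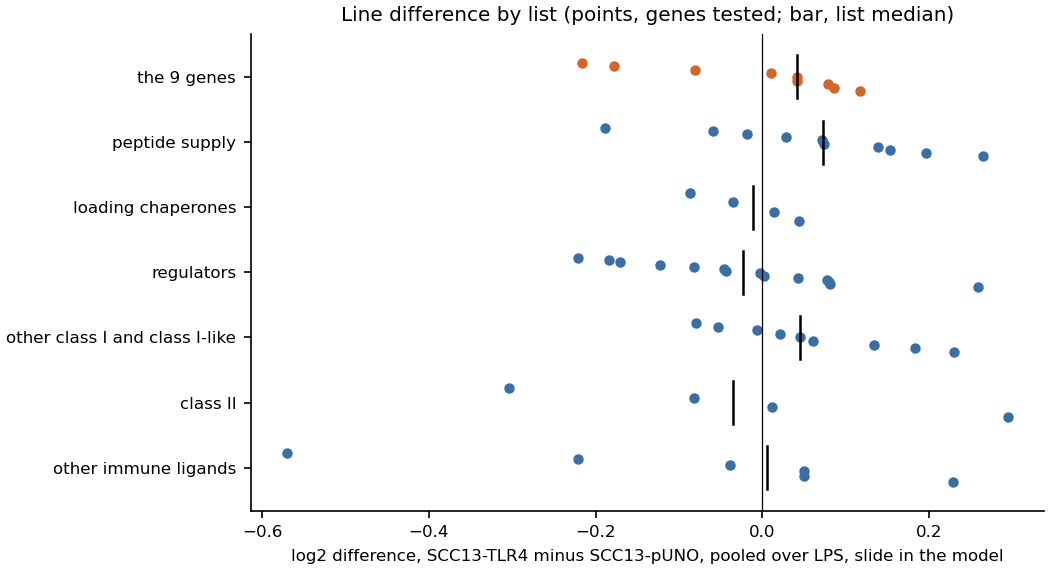
Pooled difference of SCC13-TLR4 from SCC13-pUNO with slide as a factor (x axis, log2) for the 9 genes and for the 47 tested genes of the 6 lists (y axis), 1 point per gene, with the list median as a bar. Points lie between -0.57 and 0.29, and no gene shown was called.

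The genes whose levels over the 15 arrays were most like the mean of the 9 members, an unscaled mean of log2 levels in which each gene weighs by its own range, were H4C2 (Pearson's r 0.974), H4C13 (0.972), OIP5-AS1 (0.972), CCDC125 (0.972) and IQCB1 (0.968), among 15409 probes. The arrays shared slides, and with the mean of each slide subtracted the nearest were C1R (0.880), TBC1D2 (0.846), ABCB6 (0.846), ABHD8 (0.845) and UBE2A (0.832). HLA-B and HLA-C, which shared the split by slide, had an r of -0.029 once the slide means were subtracted. These are descriptions over 15 arrays that share their slides.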

How the data were processed

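Total RNA of 15 SCC13 samples had been hybridised to 1-colour Agilent arrays and extracted with Feature Extraction 10.7.3.1, per the file headers. The intensity used was the processed signal that the authors deposited for each of 62976 spots, which the software had background-subtracted, and the deposited value table held the same intensity at all 62976 spots. The normalization of the study is not given in the sources used here. Every array was scaled by its own 75th percentile (192 to 420 intensity units over 58717 spots other than controls), so a shift common to all genes would not be seen, and log2 was taken. Spots marked as outliers by the software (300 to 646 per array) were left out and spots of a probe were averaged. A probe entered the tests if all arrays of 1 group or more had it well above background. Precision is limited by how many arrays there are.

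Group means were compared over all 15 arrays with limma 3.58.1 in R 4.3.3, with Benjamini-Hochberg adjustment over 22690 probes and a threshold of 0.05. Single values were compared with exact two-sided permutation tests in Python 3.11.15, and an overlap means that the ranges of 2 groups share values. The script was tested on simulated data. Genes were named through the accessions of the array design and RefSeq. The brightest probe stood for a gene. The text names all 9 members, TLR4, the markers, partners of the members and the 3 genes of each list with the largest pooled line difference in the fit without slide, and marks any gene picked later from its values. Some genes of the lists are not reported here and entered no list count. The members and lists were chosen with earlier results of these data known. Slide, replicate block, normexp, quantile normalization, filters, array weights and single arrays left out were the alternatives.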

Additional observations from a re-analysis of the deposited data

Results flagged for a closer look

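In 27 groups of 4 arrays, formed by the 9 genes and the 3 groups of that size, 1 array stood far from the other 3 in 2 cases, where chance gives about 1.35. HLA-B was at 3.00 in untreated SCC13-pUNO replicate 4, and the other 3 arrays of that group lay between 0.05 and 0.47. This was the only array of its group on slide 2. TAP2 was at 2.19 in SCC13-pUNO replicate 3 with LPS, and the other 3 arrays lay between 1.80 and 1.85.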

How the results depend on the processing

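No member was called between the lines or with LPS under any alternative run, with a lowest adjusted p of 0.064 for HLA-C between the untreated lines with array weights, while the directions of small differences often changed. The cause was not tested for any of them. Without slide in the model 5 probes of all were called between the lines pooled over LPS. With slide as a factor there were 22, and 49 when the array labelled as untreated replicate 2 of SCC13-pUNO was also left out. Leaving out any other single array with slide as a factor gave 2 without untreated SCC13-TLR4 replicate 3, 1 without SCC13-TLR4 replicate 4 with LPS and 0 in the other 12 fits, and quantile normalization with slide gave 0. With slide as a factor the count was 22 with outlier spots kept, 17 with a filter on all 15 arrays and 13 with normexp. In the fits without slide the pooled count was 2 without a filter and 7 with normexp. It was 0 there with quantile normalization, a filter on all 15 arrays, outlier spots kept, the replicate block, array weights or trended robust moderation. In untreated cells 12 probes were called with array weights and 11 with slide as a factor and replicate 2 left out. With LPS 22 were called in the latter fit and 5 when only the groups compared were fitted. Leaving out 1 array gave 0 to 7 probes in untreated cells, 0 to 10 with LPS and 0 to 23 pooled, the highest of each without untreated SCC13-pUNO replicate 2. The LPS response gave 0 to 1 in SCC13-pUNO and 0 to 5 in SCC13-TLR4, and the difference of the responses 0 to 3, the last 2 highest without untreated SCC13-TLR4 replicate 3. Between the slides 10521 to 11643 were called.

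With slide as a factor, directions turned for HLA-B (-0.073), HLA-E (0.081) and TAP1 (0.095) between the untreated lines, for HLA-B (-0.22) and TAP1 (0.042) pooled, for HLA-C (-0.064), HLA-F (0.015), B2M (0.023) and TAPBP (0.11) in the LPS response of SCC13-pUNO, and for HLA-E (-0.0096) in that of SCC13-TLR4. Leaving out replicate 2 as well gave -0.16, 0.093 and 0.10, then -0.26 and 0.045, then -0.0079 for HLA-C, 0.047 for HLA-F and 0.13 for TAPBP, and -0.0089 for HLA-E. With normexp the turned values were 0.013 for HLA-C, 0.053 for TAP1 and -0.034 for TAPBP between the lines with LPS, 0.026 for HLA-E untreated, -0.011 for TAPBP and -0.050 for CD274 pooled, and -0.0017 for HLA-E in the LPS response of SCC13-TLR4. Array weights gave HLA-C 0.10 and TAPBP -0.033 with LPS, HLA-E -0.015, HLA-F -0.019 and TAPBP -0.096 pooled, HLA-F -0.062 and TAPBP -0.16 untreated, and HLA-F 0.022, B2M 0.044 and TAPBP 0.11 in the LPS response of SCC13-TLR4. Quantile normalization gave HLA-E 0.026 and TAP1 0.045 untreated, TAP1 0.037 with LPS, TAP1 0.041 and CD274 -0.13 pooled, and TAPBP 0.0048 and CD274 -0.20 in the LPS responses of SCC13-pUNO and SCC13-TLR4. Between the slides it gave TAP2 0.013 and CD274 -0.12, and HLA-F (-0.077) and B2M (-0.11) were no longer called. The mean over all tested probes of TAPBP gave -0.10 untreated, -0.025 pooled and 0.14 in the LPS response of SCC13-TLR4.

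The replicate block gave HLA-E -0.0025, TAPBP -0.0080 and CD274 -0.017 pooled, TAPBP -0.040 untreated and TAPBP 0.058 in the LPS response of SCC13-TLR4, and changed no member call. Deviations of arrays with the same replicate number correlated at 0.33 to 0.71 on the same slide and at -0.63 to -0.29 on different slides, so that the numbers were not taken to pair the samples.

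With single arrays left out, the ranges that crossed 0 were -0.87 to 0.14 for HLA-B and -0.31 to 0.31 for HLA-C between the lines with LPS. HLA-E lay between -0.11 and 0.021 untreated, -0.0092 and 0.071 pooled and -0.016 and 0.095 in the LPS response of SCC13-TLR4. HLA-F lay between -0.044 and 0.13 untreated, -0.046 and 0.086 with LPS, -0.010 and 0.076 pooled, and -0.085 to 0.015 and -0.14 to 0.032 in the LPS responses. B2M had LPS responses of -0.090 to 0.021 and -0.13 to 0.081, and TAP2 of -0.0063 to 0.12 and -0.036 to 0.15. TAP1 lay between -0.10 and 0.060, -0.077 and 0.083, and -0.056 and 0.032 between the lines, and between -0.15 and 0.013 in the LPS response of SCC13-TLR4. TAPBP lay between -0.13 and 0.13, -0.12 and 0.11, and -0.051 and 0.078 between the lines, and its LPS responses between -0.094 and 0.14 and between -0.12 and 0.14. CD274 lay between -0.052 and 0.12 pooled, -0.13 and 0.12 in the LPS response of SCC13-TLR4 and -0.10 and 0.12 between the slides. Apart from the fits without single arrays, 628 values of the 9 genes kept their direction and side of the threshold, 53 turned, 2 were no longer called and 4 moved by more than the spread between replicates. These 4 were values within a slide. Between the untreated lines they were HLA-E 0.17 on slide 2, and B2M 0.070 and TAP2 -0.0024 on slide 1. The last was TAP2 0.24 on slide 2 in the LPS response of SCC13-pUNO.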
